A study of Mus musculus with 12 samples.

Results

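Natural killer (NK) cells from the spleen of mice lacking the microRNA miR-142 were compared with NK cells from wild type spleen. The comparison rests on 6 of the 12 arrays of the series, those titled as spleen, with 3 biological replicates per genotype, and on every probe set that the platform annotation pairs with exactly 1 gene symbol, 21789 of 35556. The wild type group was labelled miR142 WT and the knockout group miR142 KO. All mice were C57BL6, between 7 and 10 weeks old, matched for age and sex, and given no treatment in the labels. NK cells were sorted as CD3- NK1.1+, which also takes in type 1 innate lymphoid cells (ILC1), since those carry NK1.1 too. How the allele was made, and whether an array held RNA of 1 animal or of several, is not given in the sources used here. A further 6 arrays, of bone marrow NK cells of the same genotypes, entered the fit to share 1 estimate of the spread and were compared once, at the end. The series' design text gives the purpose as finding genes whose expression differs between the genotypes.

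A microRNA is a short RNA that guides Argonaute proteins to messenger RNAs, which are then degraded or translated less; bases 2 to 8 of the microRNA, the seed, do most of the pairing. miR-142 is made almost only in blood cells and is among the most abundant microRNAs of lymphocytes. NK cells and ILC1s are related innate lymphocytes: NK cells circulate and kill through granzymes and perforin, while ILC1s mostly stay in tissues, carry the collagen-binding integrin CD49a and the death ligand TRAIL, and respond to transforming growth factor beta.

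The missing gene gives 2 mature microRNAs from 1 hairpin, one from each arm. They are shown because their seeds differ and so address different messenger RNAs. The sequences are those of RefSeq on GRCm38.p6 and are written from 5′ to 3′ with the seed in capitals. The hairpin lies at chr11:87756864-87756927 on the plus strand.
mmu-miR-142a-5p: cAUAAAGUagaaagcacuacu
mmu-miR-142a-3p: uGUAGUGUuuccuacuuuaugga
The first has 21 bases and lies at chr11:87756867-87756887. The second has 23 bases and lies at chr11:87756903-87756925.

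The probe set of the deleted gene, Mir142, separated the genotypes. On the log2 scale it read 6.77, 7.17 and 7.58 in wild type arrays 1 to 3 and 4.05, 4.59 and 4.50 in knockout arrays 1 to 3. All 3 knockout arrays lay below the level of 5.49 that a gene's mean had to pass to be tested. The wild type mean was 1.68 above that level. The fitted difference of Mir142 was -2.91 ± 0.29 (standard error of the fit; limma adjusted p = 7.34e-05), and its size depends on how dim signals are summarised. The sorted cells expressed the defining NK cell genes in both genotypes. The log2 of the summed signal of 11 NK cell markers ran from 15.47 to 15.54 in wild type and from 15.52 to 15.61 in knockout arrays. None of the 11 was called by limma; 3 had an unadjusted p under 0.05, and the variance model with trend and robust fitting called 1 higher and 1 lower. Ncr1, which encodes the activating receptor NKp46, differed by 0.01 ± 0.12 and Klrd1, the CD94 chain, by 0.10 ± 0.09.

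Loss of miR-142 was accompanied by changes in 1090 of 11963 tested genes, or 9.11%, at a Benjamini-Hochberg adjusted p under 0.05 in limma. Of these, 656 (5.48% of the tested genes) were higher and 434 (3.63%) lower in knockout cells. A difference of over 2-fold was seen for 169 of the higher and 82 of the lower genes, and one of over 8-fold for 10 higher genes and 1 lower gene. The median log2 difference was 0.71 among the higher and -0.65 among the lower genes, against -0.01 over all tested genes. In 3348 genes, 28% of those tested, the 3 arrays of one genotype all lay on one side of the 3 of the other, and 1078 of the 1090 called genes were among them. With 3 arrays against 3, an exact permutation test of a single gene cannot give a two-sided p under 0.10, so the calls rest on the spread that limma estimates over all genes. Leaving out an array lowered the count, most without wild type array 3 (546 genes) and without knockout array 3 (647 genes). The count of genes past 2-fold then stayed between 234 and 271. The spleen arrays fell into 2 runs of array numbers, each with both genotypes. The median log2 difference of the higher genes was 0.71 in the first run and 0.73 in the second, that of the lower genes -0.65 and -0.62. These medians come from the arrays that chose the genes and are no independent evidence. Wild type array 3 was the only wild type spleen array of the second run, and knockout array 3 the only knockout spleen array of the first. Without either, 1 run held a single genotype in spleen, and with the run term kept the comparison was less precise. A call lost without 1 of these 2 arrays therefore does not by itself mark that array as unusual. One genotype's mean lay below the tested level of 5.49 for 46 of the higher genes (wild type) and 23 of the lower genes (knockout). Dim signals can be compressed on arrays, so fitted differences of such genes are not exact fold changes, and their ranks by size are uncertain. They include 6 of the 15 largest rises (Plac8, Gzmc, Tmem273, Gpr34, Gsta4 and Sema6d) and 3 of the 15 largest falls (Mir142, Plxnc1 and Slamf6).

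**Figure D1:**
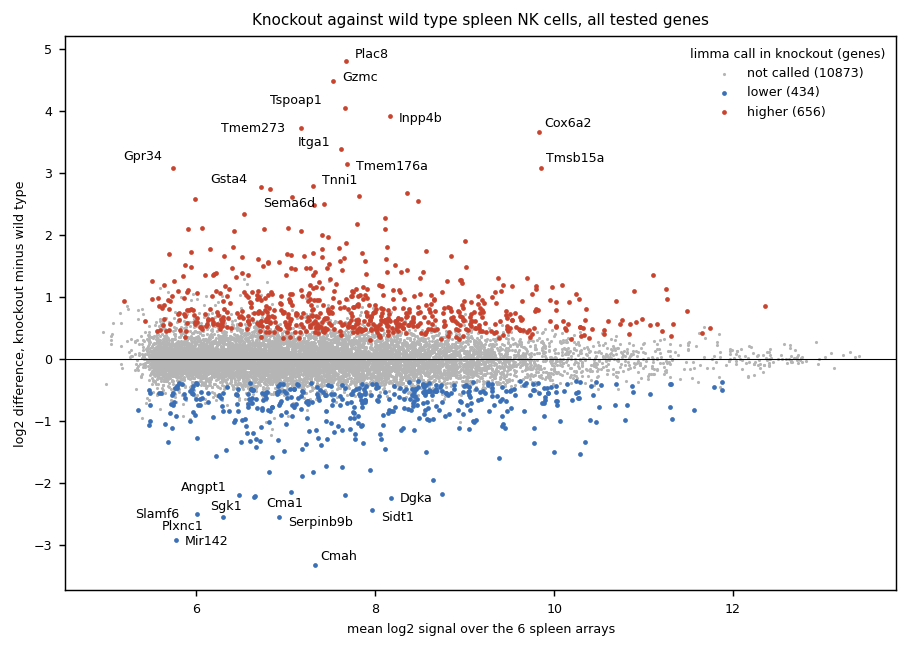
Each point is 1 of the 11963 tested genes, with its mean log2 signal over the 6 spleen arrays on the horizontal axis and the log2 difference between knockout and wild type on the vertical axis. Red and blue points are the 656 genes called higher and the 434 called lower by limma; the largest rise is Plac8 at 4.80 and the largest fall Cmah at -3.32.

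The largest rise was that of Plac8, a small cysteine-rich protein of leukocytes. It read 6.21, 5.17 and 4.73 on the log2 scale in the wild type arrays and 9.86, 10.01 and 10.06 in the knockout arrays. The wild type arrays were spread over more than 1 log2 unit and the knockout arrays lay close together, 3.65 above the highest wild type array. Plac8 rose by 4.80 ± 0.25 (limma adjusted p = 5.89e-07), with a wild type mean of 5.37, below the tested level, and a knockout mean 4.49 above it. Next came Gzmc, which encodes granzyme C, a granule protease. Its signal was 5.64, 5.72 and 4.78 in wild type and 9.63, 10.07 and 9.31 in knockout arrays. The groups did not overlap, and Gzmc rose by 4.48 ± 0.34. Its wild type mean of 5.38 was also below the tested level, and its knockout mean 4.18 above it. Tspoap1, a scaffold protein that binds the mitochondrial translocator protein, gave 5.57, 5.78 and 5.55 in wild type against 9.58, 9.94 and 9.59 in knockout arrays and rose by 4.05 ± 0.17. Inpp4b, a lipid phosphatase that removes a phosphate from phosphatidylinositol bisphosphate, gave 6.60, 6.28 and 5.79 against 10.15, 10.27 and 9.89 and rose by 3.91 ± 0.19. Both had wild type arrays in the lower and knockout arrays in the upper part of the signal range.

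Several other strong rises were in genes better known from other tissues. Cox6a2 encodes the heart and muscle form of a cytochrome c oxidase subunit. Its signal was 7.84, 7.91 and 8.28 in wild type and 11.50, 11.53 and 11.90 in knockout arrays, a rise of 3.65 ± 0.18. Tnni1, the slow skeletal muscle troponin I, gave 6.26, 6.10 and 5.51 against 8.58, 8.77 and 8.60 and rose by 2.79 ± 0.18. Tmsb15a, a thymosin that binds actin monomers, gave 8.54, 8.17 and 8.27 against 11.58, 11.39 and 11.16 and rose by 3.09 ± 0.17. In all 3 genes the wild type and knockout arrays were more than 2 log2 units apart. The remaining genes among the 15 largest rises were Tmem273 (3.72 ± 0.29), Itga1 (3.38 ± 0.22), Tmem176a (3.14 ± 0.20), Gpr34 (3.09 ± 0.21), Gsta4 (2.78 ± 0.25), Sema6d (2.74 ± 0.22), Itgad (2.68 ± 0.15) and Tmem176b (2.64 ± 0.23). All 15 were still called in each of the 20 alternative analyses that tested them; the stricter filter left out Gpr34.

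The largest fall was that of Cmah, the enzyme that turns N-acetylneuraminic acid into N-glycolylneuraminic acid, the sialic acid form typical of mouse cells. Its signal was 8.89, 8.94 and 9.04 in wild type and 6.12, 5.28 and 5.66 in knockout arrays. The wild type arrays were nearly alike, all 3 knockout arrays were lower, and Cmah fell by 3.32 ± 0.29, a 10.0-fold difference (limma adjusted p = 2.95e-05). Serpinb9b, an inhibitor of granzymes, had a signal of 8.24, 8.23 and 8.18 against 5.47, 6.08 and 5.36 and fell by 2.55 ± 0.21. Plxnc1, the receptor of semaphorin 7A, gave 7.48, 7.50 and 7.70 against 5.21, 4.68 and 5.23 and also fell by 2.55 ± 0.24. Sidt1, a membrane protein linked to RNA transport, gave 9.06, 9.26 and 9.15 against 6.78, 6.74 and 6.79 and fell by 2.43 ± 0.12. None of these genes had overlapping groups. Further down, H60b, a ligand of the activating receptor NKG2D, gave 8.36, 8.40 and 7.69 in wild type and 5.52, 6.83 and 5.57 in knockout arrays. Knockout array 2 was the highest of its group yet below every wild type array, and H60b fell by 2.13 ± 0.36. Gpr137b-ps, a pseudogene, fell by 1.82 ± 0.21. Ifi208, of the interferon-inducible HIN-200 family, fell by 1.88 ± 0.43 with a limma adjusted p of 0.0166. The call of Ifi208 was lost without wild type array 3 (adjusted p = 0.141) and without knockout array 2 (adjusted p = 0.051). For copies within the Ifi200 and H60 families, probe sets can share sequence, so these values may mix members.

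**Figure D2:**
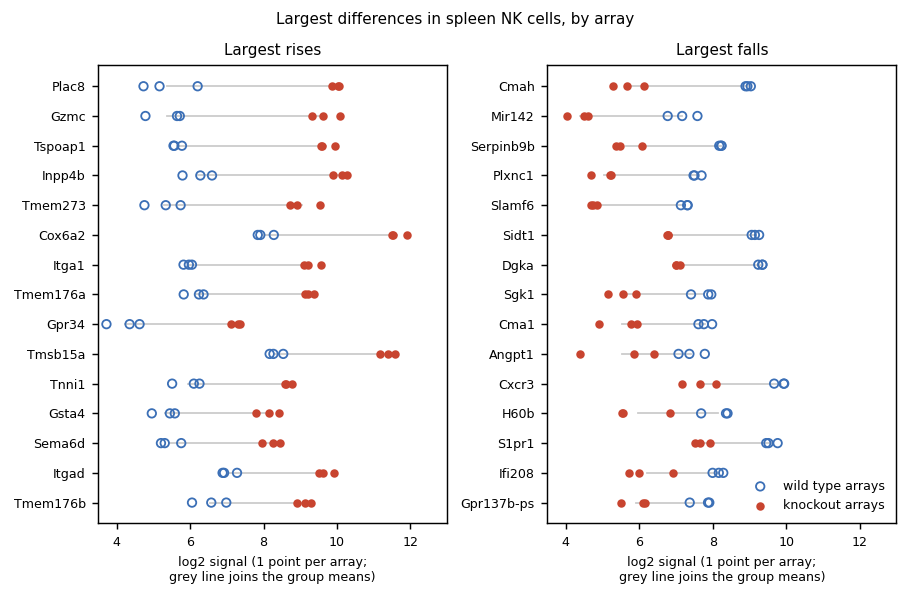
Log2 signal on each spleen array for the 15 largest rises (left) and the 15 largest falls (right) among called genes whose groups do not overlap. Open blue circles are the wild type and filled red circles the knockout arrays, and a grey line joins the group means; for Plac8 the wild type arrays lie between 4.73 and 6.21 and the knockout arrays between 9.86 and 10.06.

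Genes listed for ILC1s and tissue-resident lymphocytes stood mostly higher in knockout spleen. Of 24 tested members of this list, 14 rose, 1 fell and 9 were not called, with a median log2 difference of 0.79 against -0.01 over all genes. The called share was 62.5%, against 9.11% of all tested genes. This list, like the others here, was written with earlier results of these data known, and it holds several of the largest rises. Its counts and median describe the list and are no independent evidence. The median was 0.55 within the first run and 1.10 within the second, and the count of rises ran from 11 to 16 over the alternatives. Itga1, the CD49a integrin chain that defines ILC1s in many tissues, was 6.05, 5.82 and 5.97 in wild type and 9.21, 9.56 and 9.10 in knockout arrays. Its groups were 3.05 log2 units apart, and it rose 10.4-fold (limma adjusted p = 2.98e-06). Tnfsf10, which encodes TRAIL, was 6.70, 6.04 and 6.62 against 8.58, 8.64 and 8.24 and rose by 1.97 ± 0.16. Cxcr6, a chemokine receptor that holds lymphocytes in liver sinusoids, was 7.51, 7.31 and 7.23 against 8.82, 8.70 and 9.18 and rose by 1.61 ± 0.17. In these genes too, every knockout array exceeded every wild type array.

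Of the other members of the list, Ahr, the aryl hydrocarbon receptor, a transcription factor needed by resident lymphocytes, rose by 1.71 ± 0.22, and Il21r, the receptor of interleukin-21, by 1.44 ± 0.15. Ckb, the brain form of creatine kinase, rose by 2.27 ± 0.35. Itgav, the alpha v integrin chain, which pairs with beta chains that release active transforming growth factor beta, was 8.78, 8.70 and 8.21 in wild type and 9.38, 9.24 and 9.23 in knockout arrays and rose by 0.77 ± 0.13. Wild type array 3 was the lowest of its group, but the groups were separate. Not called were Xcl1, a chemokine that attracts cross-presenting dendritic cells (0.15 ± 0.09) and Bhlhe40, a transcription factor of resident lymphocytes (0.42 ± 0.16). The single lower member was Gpr183, a receptor for oxysterols, at -0.68 ± 0.18 (limma adjusted p = 0.0373); the call was lost without wild type array 1 (adjusted p = 0.0747) or 2 (0.0864) and without knockout array 1 (0.0605) or 3 (0.315), and also with the 6 spleen arrays fitted alone, with or without the run term, and with array weights (0.0545 to 0.111). Since NK cells and ILC1s share the sort gate, more cells of a type and more RNA per cell cannot be told apart in these bulk arrays.

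Integrins changed in both directions. Of 18 tested chains, 6 rose, 3 fell and 9 were not called, and the median was 0.05. Thus 9 of 18 were called, against 9.11% of all tested genes. Itgad, a partner of the beta 2 chain, was 6.93, 7.28 and 6.88 in wild type and 9.93, 9.62 and 9.51 in knockout arrays, and rose by 2.68 ± 0.15; a second, dimmer Itgad probe set differed by 0.20. Itgax, the CD11c chain, was 10.39, 10.44 and 10.42 against 11.87, 11.74 and 11.76 and rose by 1.36 ± 0.11. The arrays of each genotype lay close together for Itgax. Itga4, a chain that binds the vascular adhesion molecule VCAM-1, was 11.85, 11.83 and 11.69 against 11.02, 10.87 and 10.62 and fell by 0.97 ± 0.14. Itgb2, the common beta chain of leukocyte integrins, fell by 0.56 ± 0.10 and Itga2, the CD49b chain used to mark mouse NK cells, by 0.44 ± 0.11. The call of Itga2 was lost without any 1 spleen array other than knockout array 1, with limma adjusted p values from 0.0623 to 0.206, and in 3 alternatives that kept all arrays (0.0509 to 0.0809). Itgam, the CD11b chain of mature NK cells, was not called at -0.27 ± 0.17, nor was Itgal at -0.22 ± 0.09.

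Other adhesion molecules were split as well, with 4 of 21 higher, 5 lower (42.9% called, against 9.11% of all tested genes) and a median of -0.02. Cdh1 encodes E-cadherin, the ligand of KLRG1, and rose by 1.61 ± 0.19. The tetraspanin Cd151 rose by 1.54 ± 0.18, Pecam1 by 1.44 ± 0.13 and Ctnnb1, the beta-catenin that binds cadherins, by 1.02 ± 0.11. Mcam was 8.36, 8.28 and 8.31 in wild type and 6.76, 6.42 and 6.57 in knockout arrays and fell by 1.73 ± 0.13. Cd44, the hyaluronan receptor, was 8.76, 8.97 and 8.79 against 7.33, 7.28 and 7.52 and fell by 1.44 ± 0.12. The groups were far apart for both. Icam2 fell by 1.07 ± 0.16. The 5 falls became 3 without wild type array 1 or 3 and without knockout array 2 or 3; the 4 rises stayed at 4 or 5 in all alternatives.

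Of 17 tested receptors that guide cells out of tissues and to inflamed sites, 9 fell, 3 rose and 5 were not called, with a median of -0.51. Their called share was 70.6%, against 9.11% of all tested genes. The 9 falls became 5 without wild type array 3 and also 5 without knockout array 3. S1pr1, the receptor for sphingosine 1-phosphate that draws lymphocytes into blood and lymph, was 9.46, 9.52 and 9.77 in wild type and 7.64, 7.94 and 7.53 in knockout arrays. It fell by 1.95 ± 0.17 (limma adjusted p = 2.78e-05). Its relative S1pr5, which NK cells use to leave marrow and lymph nodes, fell by 0.51 ± 0.13 and S1pr4 by 0.64 ± 0.13. S1pr3 went the other way, from 5.05, 4.64 and 4.51 to 7.32, 6.88 and 7.54, and rose by 2.58 ± 0.20. The call of S1pr5 was lost without any 1 spleen array (adjusted p from 0.0504 to 0.141), without a run term (0.0613), with run as a random block (0.0812) and with the replicate block in spleen (0.0656). That of S1pr4 was lost without wild type array 3 (0.0653) or knockout array 3 (0.0996). S1pr2 was not called at 0.02 ± 0.10, so the family changed in both directions.

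Among chemokine receptors, Cxcr3, which binds interferon-induced chemokines, was 9.95, 9.93 and 9.67 in wild type and 7.67, 7.18 and 8.09 in knockout arrays and fell by 2.17 ± 0.24. Ccr2 was 10.84, 11.01 and 11.05 against 9.95, 9.79 and 9.43 and fell by 1.33 ± 0.12. The knockout arrays of both genes were all below the wild type arrays. Cxcr4, which holds cells in marrow, fell by 1.04 ± 0.20. Cx3cr1, the fractalkine receptor of mature NK cells, had a wide wild type spread (8.96, 7.94 and 8.37) and knockout values of 7.15, 7.20 and 7.50. It fell by 1.06 ± 0.21 but did not pass without wild type array 3 (limma adjusted p = 0.0804). Ptger4, a prostaglandin E2 receptor, rose by 1.30 ± 0.12.

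**Figure D3:**
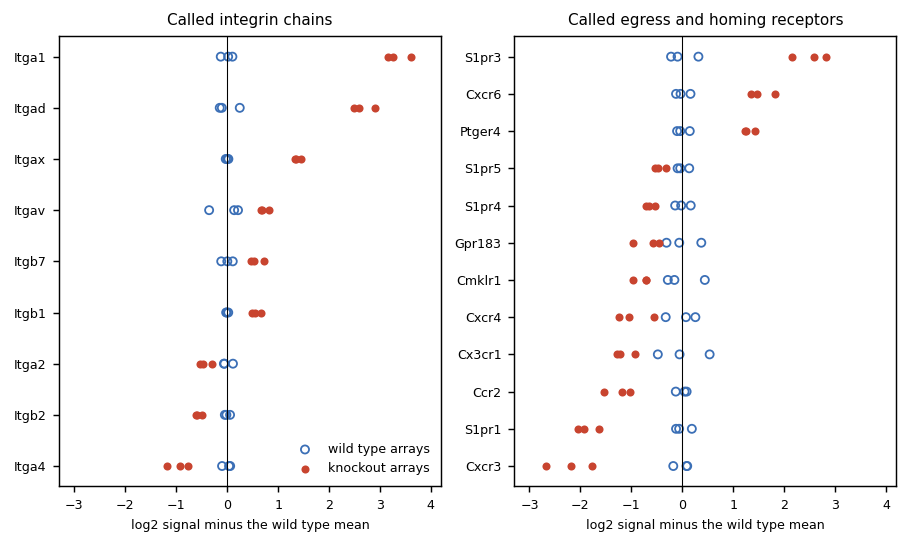
Log2 signal on each spleen array minus the wild type mean for the 9 called integrin chains (left) and the 12 called egress and homing receptors (right); open blue circles are wild type and filled red circles knockout arrays. Itga1 and Itgad lie farthest to the right among integrins, while S1pr1 and Cxcr3 lie farthest to the left among the receptors and S1pr3 farthest to the right.

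Of 24 effector genes of the cytotoxic granule and of death signalling, 7 were higher, 4 lower and 13 not called, with a median of 0.20. A share of 45.8% was called, against 9.11% of all tested genes. Of the called members 63.6% were higher, against 60.2% of all called genes. Gzmb, the main apoptosis-inducing granzyme, was 10.74, 10.66 and 10.69 in wild type and 11.85, 11.70 and 11.86 in knockout arrays and rose by 1.14 ± 0.12 (limma adjusted p = 0.000121). Gzmk was 7.93, 7.54 and 7.71 against 9.12, 9.37 and 9.73 and rose by 1.74 ± 0.15. Both were separate in every array. Gzma (0.17 ± 0.10), Prf1, the pore-forming perforin (0.17 ± 0.13), and Nkg7 (-0.02 ± 0.09) were not called. Srgn, the proteoglycan that packs granules, rose by 0.57 ± 0.10. Cma1, a chymase, was 7.98, 7.61 and 7.76 against 5.94, 4.90 and 5.77 and fell by 2.21 ± 0.23; with Serpinb9b it made the largest falls of the list. The 4 falls became 2 without wild type array 2. Gzmd, Gzme, Gzmf and Gzmg, the neighbours of Gzmc in the granzyme cluster, lay below the level tested.

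Of 18 tested cytokines and chemokines, 1 rose, 2 fell and 15 were not called, a called share of 16.7% against 9.11% of all tested genes. Ifng, the interferon that NK cells secrete, was 10.48, 10.33 and 10.66 in wild type and 9.21, 8.56 and 9.41 in knockout arrays and fell by 1.35 ± 0.30 (limma adjusted p = 0.0145). All 3 knockout arrays were lower, but the call was lost without wild type array 3 (adjusted p = 0.161). Angpt1, the ligand of the endothelial receptor Tie2, fell by 2.18 ± 0.32; its knockout arrays were far apart at 6.39, 5.85 and 4.39. Tgfb1 rose by 0.49 ± 0.13, and the call did not hold without wild type array 2 (adjusted p = 0.093) or 3 (0.16) and without knockout array 2 (0.0821) or 3 (0.0539), nor with the 6 spleen arrays fitted alone with the run term (0.0712) or the replicate block (0.0586). Ccl5 (0.03 ± 0.09) and Ccl3 (0.19 ± 0.15) were among the genes not called.

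Among lectin receptors of the NK gene complex, which recognise MHC class I and related ligands, 5 of 20 rose and 2 fell (median 0.10). Their called share was 35.0%, against 9.11% of all tested genes. Klra5, which encodes Ly49E, was 6.24, 6.25 and 5.89 in wild type and 8.86, 8.98 and 8.38 in knockout arrays and rose by 2.50 ± 0.26. Clec2i, a ligand of the receptor NKR-P1G, rose by 0.97 ± 0.13 and Klrb1b, the inhibitory NKR-P1B chain, by 0.78 ± 0.12. Klrg1, a cadherin-binding inhibitory receptor, was 9.76, 9.0 and 9.12 against 10.32, 10.30 and 10.31. The knockout arrays were nearly equal and above all wild type arrays, and Klrg1 rose by 1.13 ± 0.25. Its call was lost without wild type array 3 (limma adjusted p = 0.0773), and the 5 rises then became 3. Klri2 fell by 0.74 ± 0.16 and was likewise not called without that array (adjusted p = 0.0856). The 2 falls became 0 without wild type array 3 and 1 without any other spleen array. Klrc1, the NKG2A chain, at -0.44 ± 0.13 and Klrd1 were not called, although Klrc1 was called lower in 8 of the 20 alternatives (lowest adjusted p = 0.0131). Ly49 genes are near-identical copies, so a probe set can pick up several of them.

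SLAM receptors, which bind one another on neighbouring blood cells, and their adaptors had 8 tested members, of which 2 fell and 6 were not called. Over all tested genes 9.11% were called. Slamf6 was 7.31, 7.32 and 7.13 in wild type and 4.75, 4.85 and 4.68 in knockout arrays. Its groups were tight and 2.29 log2 units apart. All 3 knockout arrays lay below the tested level of 5.49 and the wild type mean 1.76 above it, so the fall of 2.50 ± 0.11 (limma adjusted p = 3.76e-07) is not an exact fold change. Sh2d1a, the adaptor SAP that SLAM receptors recruit, fell by 0.71 ± 0.18; it was not called without wild type array 1 (adjusted p = 0.0764) or 3 (0.116), without knockout array 3 (0.103) or with the 6 spleen arrays fitted alone with the run term (0.0644). Slamf7 (0.30 ± 0.15) and Cd244a (0.28 ± 0.14) did not pass the test.

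Other activating and inhibitory co-receptors rose in 7 and fell in 3 of 23 tested genes (43.5% called, against 9.11% of all tested genes). These counts became 4 and 1 without wild type array 3. Tnfrsf9, the activation-induced receptor 4-1BB, was 8.18, 7.98 and 7.97 in wild type and 9.91, 10.27 and 9.72 in knockout arrays and rose by 1.91 ± 0.17. Tigit, an inhibitory receptor for nectin-like proteins, was 8.23, 8.34 and 8.0 against 9.16, 9.56 and 9.50 and rose by 1.26 ± 0.13. Neither gene had overlapping groups. Styk1, a pseudokinase of NK cells, rose by 1.32 ± 0.12 and Lilrb4a, an inhibitory receptor, by 1.12 ± 0.17. Cd226, which shares ligands with TIGIT, rose by 0.80 ± 0.18 and was not called without wild type array 3 (limma adjusted p = 0.139). Cd28, a costimulatory receptor best known from T cells, was 9.01, 9.29 and 9.32 against 8.45, 8.42 and 8.18 and fell by 0.92 ± 0.14. Fcer1g, an adaptor for NKp46 and CD16, was not called at 0.07 ± 0.09.

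Signalling proteins that act below antigen and NK receptors fell in 8 and rose in 3 of 33 tested genes (median -0.05). That is 33.3% called, against 9.11% of all tested genes. Cd2, an adhesion receptor that costimulates killing, was 11.26, 11.24 and 11.36 in wild type and 10.35, 10.12 and 10.44 in knockout arrays and fell by 0.98 ± 0.13. Cd247, the zeta chain that couples CD16 and NKp46 to kinases, was 8.74, 8.89 and 9.05 against 8.18, 8.30 and 8.30 and fell by 0.69 ± 0.11. The adaptors Tyrobp (-0.02 ± 0.09) and Hcst (-0.37 ± 0.11) were not called, but Hcst was called lower in 6 alternatives (lowest adjusted p = 0.00895). The 8 falls became 5 without wild type array 1 or 3 and 4 without wild type array 2 or knockout array 3, and also 4 when the 6 spleen arrays were fitted alone with the run term. The 3 rises became 0 without wild type array 3 and 1 without knockout array 3.

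Enzymes of phosphoinositide and diacylglycerol signalling, which relay receptor signals through membrane lipids, included some of the strongest changes: 6 of 30 rose and 5 fell. The called share was 36.7%, against 9.11% of all tested genes. Dgka, which turns diacylglycerol into phosphatidic acid, was 9.35, 9.35 and 9.24 in wild type and 7.01, 7.00 and 7.11 in knockout arrays, and fell by 2.24 ± 0.13 (limma adjusted p = 1.07e-06). Sgk1, a kinase downstream of phosphoinositide 3-kinase, was 7.41, 7.88 and 7.96 against 5.56, 5.15 and 5.90 and fell by 2.23 ± 0.31. Both were lower in every knockout array, as was Pik3r5, a regulatory subunit of the gamma kinase, at -0.97 ± 0.12. Besides Inpp4b, Pip5k1b, which makes phosphatidylinositol bisphosphate, rose from 5.98, 4.94 and 5.33 to 7.47, 7.30 and 7.54, by 2.07 ± 0.23. Pik3r3, another regulatory subunit of phosphoinositide 3-kinase, rose by 1.34 ± 0.20. Pik3r1 and Inpp5d, the phosphatase SHIP1, were not called at -0.28 ± 0.11 and -0.38 ± 0.13. The 6 rises became 3 without wild type array 1 or 2 and without knockout array 1 or 3, while the falls stayed between 4 and 6.

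G-protein-coupled receptors and their regulators rose in 7 and fell in 3 of 34 tested genes (median 0.14). That is 29.4% called, against 9.11% of all tested genes. Gpr34, a receptor for lysophosphatidylserine, was 4.35, 4.62 and 3.72 in wild type, below the tested level, and 7.31, 7.36 and 7.11 in knockout arrays. P2ry14, a receptor for UDP-glucose, was 6.98, 7.14 and 7.10 against 9.14, 9.09 and 9.23 and rose by 2.10 ± 0.13. Rgs18, which speeds the shutdown of G proteins, was 6.09, 5.73 and 5.93 against 8.41, 7.87 and 8.11 and rose by 2.11 ± 0.23. All 3 genes rose without overlap. Gpr132, a lipid receptor, fell by 1.36 ± 0.14 and Pde2a, which breaks down cyclic nucleotides, by 0.88 ± 0.12. Without wild type array 3 the 7 rises became 4.

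Cytokine receptors rose in 3 and fell in 4 of 23 tested genes (30.4% called, against 9.11% of all tested genes). The rises became 5 in 4 alternatives, such as without a run term. Both chains of the interleukin-18 receptor, which drives interferon gamma release, fell: Il18rap was 10.93, 10.99 and 10.77 in wild type and 9.97, 9.94 and 9.81 in knockout arrays and fell by 0.99 ± 0.11, and Il18r1 fell by 0.74 ± 0.12. Kit, the stem cell factor receptor, was 8.08, 8.19 and 7.92 against 6.62, 6.92 and 6.65 and fell by 1.39 ± 0.15. The genotypes were separate for these genes. Il2rb, the shared beta chain of the interleukin-2 and interleukin-15 receptors, was not called at 0.22 ± 0.10. Among JAK, STAT and feedback genes 3 of 21 rose and 2 fell (23.8% called). Cish, which dampens interleukin-15 signals, was 6.70, 7.05 and 6.07 against 7.77, 8.01 and 8.05 and rose by 1.47 ± 0.24. Ptpn6, the phosphatase SHP-1 used by inhibitory receptors, rose by 1.19 ± 0.12. Jak1 fell by 0.44 ± 0.09 and was not called without wild type array 3 (limma adjusted p = 0.0717). Stat4 fell by 0.39 ± 0.11 and lost its call without any 1 of the 6 spleen arrays, with adjusted p values from 0.0523 to 0.287. It was also lost in 8 alternatives that kept all arrays, among them no run term (0.0686), run as a random block (0.0888) and the replicate block over 12 (0.0661) or 6 arrays (0.125). Socs1, an inhibitor of these kinases, was not called at 0.15 ± 0.16.

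Of 25 tested genes of transforming growth factor beta and activin signalling, 6 rose and none fell, with a median of 0.12. That is 24.0% called, against 9.11% of all tested genes, and the 6 became 3 without wild type array 3. Bmpr2, a receptor for bone morphogenetic proteins, was 7.39, 7.23 and 7.06 in wild type and 8.51, 8.20 and 8.31 in knockout arrays and rose by 1.13 ± 0.19. Acvr2a, an activin receptor, was 7.77, 7.55 and 7.56 against 8.84, 8.87 and 8.58 and rose by 1.11 ± 0.14. The groups were separate for both. Tgfbr1, the signalling chain of the receptor, rose by 0.42 ± 0.11, and its call was lost without any 1 spleen array other than wild type array 2, with limma adjusted p values from 0.0709 to 0.226, and with the 6 spleen arrays fitted alone with the run term (0.0801) or the replicate block (0.051). Tgfbr2 (0.17 ± 0.14), Smad3 (-0.29 ± 0.12) and Smad4 (-0.12 ± 0.12) were not called.

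Of 21 tested genes that earlier work reported as miR-142 targets, 7 rose and none fell, and the median was 0.15. The called share was 33.3%, against 9.11% of all tested genes. In the alternatives, 1 was called lower after repeated quantile normalization and 1 with trend and robust fitting. Twf1, twinfilin, which caps actin filaments, was 8.15, 8.14 and 8.01 in wild type and 8.81, 8.66 and 9.13 in knockout arrays and rose by 0.85 ± 0.10 (limma adjusted p = 0.000335); a second Twf1 probe set differed by 0.64. Gnaq, a G protein subunit, was 6.72, 6.53 and 6.37 against 7.48, 7.28 and 7.28 and rose by 0.89 ± 0.18. The rises in Twf1 and Gnaq separated the genotypes and were each under 2-fold. Il6st, the gp130 receptor chain, rose by 0.96 ± 0.22, Bod1, needed for chromosome alignment, by 0.86 ± 0.18, and Cfl2, a cofilin, by 0.43 ± 0.12. Itgav and Tgfbr1 were the others. The 7 rises became 2 without wild type array 3, when Itgav and Twf1 were still called, and 4 without knockout array 3. Single calls were lost for Gnaq without wild type array 3 (adjusted p = 0.0689) and for Bod1 without it (0.0673), without knockout array 3 (0.0601), with run as a random block (0.0682) or with the replicate block in spleen (0.0703). Il6st was not called without wild type array 1 (0.0554) or 3 (0.18) or without knockout array 3 (0.111), nor in the 6 spleen arrays alone without a run term (0.0566). Cfl2 was not called without any 1 array other than knockout array 2, with values from 0.0975 to 0.184, and in 5 alternatives that kept all arrays (0.0506 to 0.102). Genes of the list that were not called included Rac1, a small GTPase (0.15 ± 0.09), and Tab2, an adaptor of inflammatory signalling (0.08 ± 0.11). Seed matches in the messenger RNAs were not analysed here.

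Transcription factors of the lymphoid lineages rose in 6 and fell in 5 of 42 tested genes (26.2% called, against 9.11% of all tested genes). Without wild type array 3 the counts became 3 and 2, and the rises numbered 8 or 9 in 9 alternatives that kept all arrays. Besides Ahr, Hoxa9, a homeobox factor of blood progenitors, was 5.38, 5.64 and 5.89 in wild type and 7.29, 7.37 and 6.87 in knockout arrays and rose by 1.47 ± 0.14. Myc, which drives growth and biosynthesis, was 9.27, 9.37 and 9.76 against 10.75, 10.80 and 10.62 and rose by 1.20 ± 0.12. The knockout arrays were above all wild type arrays for both. Klf3, a repressor of the Kruppel-like family, was 10.10, 10.21 and 10.21 against 8.65, 8.27 and 8.86 and fell by 1.59 ± 0.18. Zeb2, which supports NK cell maturation, fell by 0.99 ± 0.16 and Klf2, which activates S1pr1, by 0.75 ± 0.14; Klf2 was not called without wild type array 3 (limma adjusted p = 0.0679). Of the factors that define the lineage, Eomes differed by -0.11 ± 0.10 and Tbx21, which encodes T-bet, by -0.05 ± 0.15, and neither was called. Id2, at 0.42 ± 0.12, narrowly missed the threshold (limma adjusted p = 0.0533) and was called higher in 9 of the 20 alternatives, with adjusted p values down to 0.0124. Eomes was 11.03, 11.07 and 11.28 in wild type and 11.16, 11.02 and 11.03 in knockout arrays, so that its groups overlapped.

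Of 17 tested genes of immature NK cells, 8 fell, 3 rose and 6 were not called, with a median of -0.50. Of 19 genes of mature NK cells, 8 fell, 2 rose and 9 were not called, with a median of -0.27. The immature list had 64.7% called and the mature list 52.6%, against 9.11% of all tested genes. Ctla2a, a protease inhibitor homologue, was 10.48, 10.86 and 10.80 in wild type and 9.45, 9.13 and 9.28 in knockout arrays and fell by 1.49 ± 0.17, and its neighbour Ctla2b fell by 1.50 ± 0.15. The pair is similar in sequence, so their signals may not be independent. Cd27, a marker of the immature stage, was not called at -0.21 ± 0.12. In the mature list Serpinb9b and Cma1 led the falls and Gzmb and Klrg1 were the rises. The 8 falls of the immature list stayed at 7 or 8 in all alternatives, while its 3 rises became 0 without wild type array 3 and 1 without knockout array 3. In the mature list the 8 falls became 4 and the 2 rises 1 without wild type array 3.

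**Figure D4:**
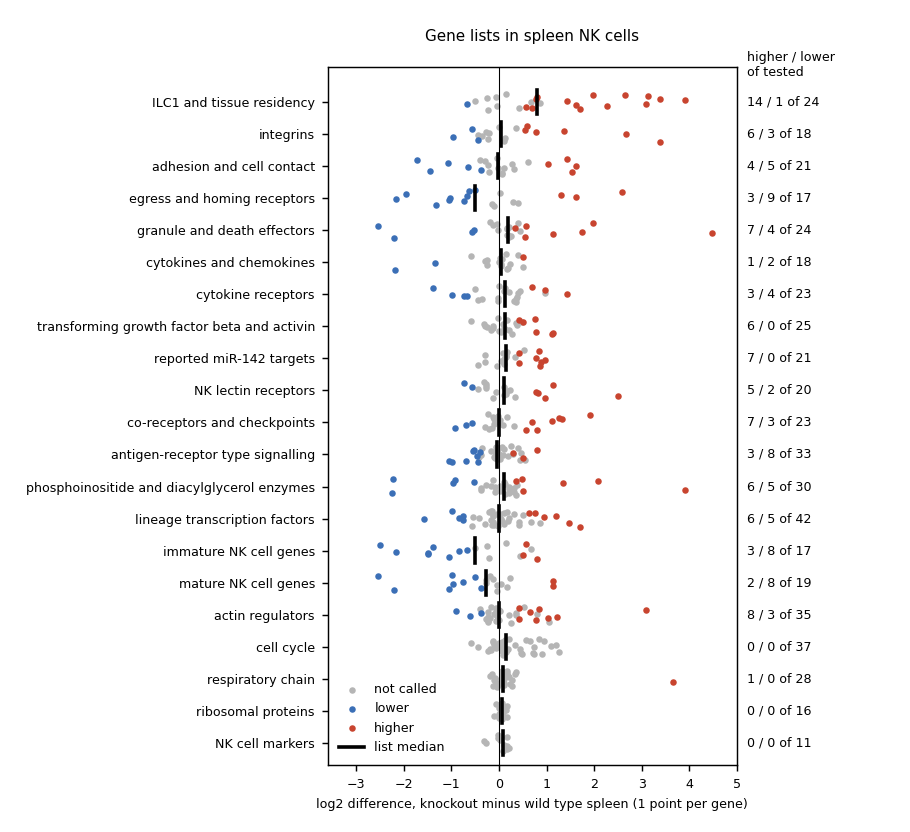
Log2 difference between knockout and wild type spleen for each tested gene of 21 lists, 1 row per list; red points were called higher, blue points lower and grey points were not called by limma, and a black bar marks the list's median. Numbers at the right give the genes higher and lower of those tested, from 14 and 1 of 24 for ILC1 and tissue residency to 0 of 16 for ribosomal proteins.

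Actin regulators rose in 8 and fell in 3 of 35 tested genes (31.4% called, against 9.11% of all tested genes). The rises stayed between 6 and 10 over the alternatives. Dstn, destrin, which cuts actin filaments, was 6.92, 6.65 and 7.23 in wild type and 8.16, 8.20 and 8.19 in knockout arrays and rose by 1.22 ± 0.21. Coro2a, a coronin, rose by 1.04 ± 0.10 and Capg, a filament capping protein, by 0.77 ± 0.14. Ssh2, a phosphatase that activates cofilin, was 9.68, 9.94 and 9.94 against 9.21, 8.82 and 8.91 and fell by 0.91 ± 0.14; a second Ssh2 probe set differed by -0.95. The 3 falls became 1 without wild type array 3. The abundant thymosins Tmsb4x (0.00 ± 0.09) and Tmsb10 (-0.07 ± 0.09) were not called, unlike Tmsb15a.

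Galectins, S100 proteins, annexins and small membrane proteins had many changes, with 9 of 24 higher and 5 lower. The called share was 58.3%, against 9.11% of all tested genes. Lgals3, galectin-3, was 7.33, 7.15 and 7.22 in wild type and 9.41, 9.93 and 9.87 in knockout arrays and rose by 2.54 ± 0.13. Itm2a, a membrane protein of T cell development, was 7.69, 7.87 and 7.85 against 9.36, 9.21 and 9.26 and rose by 1.40 ± 0.14. Both rises were free of overlap. S100a4 and S100a6, calcium-binding proteins, fell by 1.07 ± 0.20 and 0.82 ± 0.11, and the annexins Anxa2 and Anxa6, which bind membranes, fell by 0.53 ± 0.11 and 0.58 ± 0.12. Calls were lost for S100a4 without knockout array 3 (limma adjusted p = 0.0546) and for Anxa2 (0.0615) and Anxa6 (0.106) without wild type array 3. The 5 falls became 2 without wild type array 3 and 3 without knockout array 3. Lgals1 (-0.27 ± 0.11), S100a11 (-0.06 ± 0.09) and Cd52 (0.25 ± 0.09) were not called.

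In glutathione and redox metabolism 5 of 26 tested genes rose and none fell (19.2% called, against 9.11% of all tested genes). Gsta4, a glutathione transferase that clears lipid aldehydes, was 5.45, 5.58 and 4.96 in wild type and 8.14, 8.42 and 7.78 in knockout arrays. Gsta3, a relative, was 7.02, 7.11 and 7.11 against 9.01, 8.71 and 8.37 and rose by 1.58 ± 0.17. Gstm1 rose by 1.18 ± 0.18 and Gpx8, a peroxidase of the endoplasmic reticulum, by 1.30 ± 0.24. Every knockout array exceeded every wild type array for these 4 genes. Transferases of a class share sequence, so cross-hybridisation between Gsta3 and Gsta4 cannot be told apart from separate rises.

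Sialic acid and glycan enzymes rose in 3 and fell in 3 of 27 tested genes (22.2% called, against 9.11% of all tested genes). Besides Cmah, St3gal1, a sialyltransferase of O-glycans, was 8.18, 8.42 and 8.47 in wild type and 7.43, 7.35 and 6.78 in knockout arrays and fell by 1.29 ± 0.13; its dimmer probe set differed by -0.02. The 3 rises became 1 without wild type array 1 or 3 and without knockout array 3. Of 20 genes of amino acid transport and the Myc programme, 4 rose and none fell, against 9.11% called over all tested genes. Sesn1, which senses leucine, rose by 0.74 ± 0.12. Slc7a5, the large neutral amino acid transporter, was 6.70, 7.29 and 6.50 against 7.28, 7.83 and 8.22, so that knockout array 1 lay within the wild type range; it rose by 1.14 ± 0.17 with the run term and was not called without it in the 6 spleen arrays alone.

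Respiratory chain, glycolysis, sterol and fatty acid synthesis, apoptosis, cell cycle, microRNA pathway and ribosomal protein genes gave few calls. Per list, 0% to 6.67% of the tested genes were called, against 9.11% of all tested genes. Some other lists of metabolism and growth gave more calls. In amino acid transport and the Myc programme 4 of 20 rose, and in glutathione and redox metabolism 5 of 26 rose. All these lists are short, and whether their shares are set apart from that of all genes was not tested. In the respiratory chain 1 of 28 rose, which was Cox6a2; the body-wide form Cox6a1 was not called at -0.07 ± 0.10. In glycolysis 1 of 15 fell, Pfkp, a phosphofructokinase, at -0.55 ± 0.11, with its call lost without wild type array 3 (limma adjusted p = 0.0885). In sterol and fatty acid synthesis 1 of 19 rose, Lss, lanosterol synthase, at 0.60 ± 0.14; it was not called without wild type array 1 (adjusted p = 0.0506) or 3 (0.0709) or without knockout array 3 (0.175). In apoptosis 1 of 21 rose, Bcl2l11, the death-promoting protein BIM, at 0.67 ± 0.13, with its call lost without knockout array 3 (adjusted p = 0.0537). Bcl2 (-0.03 ± 0.14) and Mcl1 (-0.17 ± 0.09) were not called. None of 37 cell cycle genes was called by limma, and 4 had an unadjusted p under 0.05; the fit of the 6 spleen arrays with the replicate block called 8 higher. The cell cycle median was 0.15. None of 13 genes of the microRNA pathway was called, with 2 at an unadjusted p under 0.05, and Dicer1 differed by -0.01 ± 0.13. None of 16 ribosomal protein genes was called, and 0 had an unadjusted p under 0.05.

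Among nucleic acid sensors and GTPases of innate immunity, 2 of 22 rose and 3 fell (22.7% called, against 9.11% of all tested genes). Aim2, which senses cytosolic DNA, was 8.44, 8.11 and 8.36 in wild type and 9.92, 9.53 and 9.39 in knockout arrays and rose by 1.28 ± 0.15, whereas Ifi209 of the same family was 10.10, 9.98 and 9.86 against 9.25, 8.81 and 8.73 and fell by 1.11 ± 0.19. The 3 falls became 1 without wild type array 3 or without knockout array 2. Of 25 interferon-stimulated genes 3 rose and none fell; against 9.11% called over all genes this share is not set apart, and the 3 became 0 without wild type array 3. Of 27 immediate early genes 4 rose and none fell (14.8% called). The 4 became 2 without wild type array 3 or without knockout array 3. Dusp6, a phosphatase of ERK, was 7.55, 7.32 and 7.83 against 8.92, 9.06 and 9.04 and rose by 1.40 ± 0.15. Of 15 genes of MHC class I presentation 5 rose and none fell (33.3% called), with 0.62 as the largest log2 difference. The 5 became 3 without wild type array 1 and 2 without wild type array 3 or without knockout array 3. Pdia3, a chaperone of the peptide loading complex, rose by 0.57 ± 0.10, and B2m was not called at 0.02 ± 0.09.

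MHC class II genes, which present peptides to CD4 T cells and are high in dendritic and B cells, rose in 5 of 10 tested members. None fell, and over all tested genes 9.11% were called. H2-Aa was 6.02, 7.31 and 5.99 in wild type and 8.49, 7.94 and 8.69 in knockout arrays and rose by 2.00 ± 0.33. H2-Ab1 was 6.24, 6.59 and 6.39 against 8.12, 7.50 and 8.40 and rose by 1.66 ± 0.20. The groups did not overlap, and wild type array 2 was the highest and knockout array 2 the lowest of its group for both. Cd74, the invariant chain, rose by 1.69 ± 0.38; its call was lost without wild type array 3 (limma adjusted p = 0.174) and without knockout array 3 (0.0933). Without knockout array 3 the 5 rises became 2.

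Markers of other cell types moved with the genotype as follows, where 9.11% of all tested genes were called. Of 10 tested dendritic cell markers 5 rose. The log2 of the summed signal of the list ran from 11.46 to 11.49 in wild type and from 12.36 to 12.50 in knockout arrays. Here and in the next paragraph, summed signals include members below the tested level. The rises were Itgax, Tcf4 and 3 of the class II genes. The defining dendritic cell markers Clec9a, Xcr1, Cd209a, Siglech and Flt3 lay below the tested level in the mean of all arrays; Clec9a was 3.58, 3.80 and 3.66 in wild type and 3.58, 3.90 and 3.79 in knockout arrays. None of 4 tested B cell markers was called (1 at an unadjusted p under 0.05). The summed signal of the B cell list ran from 8.35 to 8.49 in wild type and from 8.36 to 8.50 in knockout arrays. Of 8 granulocyte markers, all with positive differences, 1 was called: S100a8, which was 8.13, 7.56 and 6.39 against 8.04, 9.18 and 9.47. The arrays of S100a8 overlapped, and the gene was not called without wild type array 3 (limma adjusted p = 0.122) or without knockout array 3 (0.0695), nor in the 6 spleen arrays alone without a run term (0.072), with run as a random block (0.0607) or with the replicate block in spleen (0.0978). The summed granulocyte signal ran from 9.41 to 10.30 in wild type and from 10.06 to 11.12 in knockout arrays. The part of these cells in the results was not tested.

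Among T cell markers 3 of 8 fell, Cd3d, Cd28 and Lef1 (37.5% called, against 9.11% of all tested genes). The 3 became 1 without wild type array 3. Cd3d was 7.83, 7.58 and 7.43 in wild type and 6.39, 5.71 and 7.11 in knockout arrays, while Cd3e (0.55 ± 0.22) and Cd3g (0.44 ± 0.22) were not called. The summed T cell signal ran from 10.71 to 10.79 and from 10.18 to 10.48. Of 6 monocyte markers 2 fell, Ccr2 and Ms4a6c, and the summed signal ran from 11.46 to 11.60 and from 10.52 to 10.66. Csf1r lay below the tested level, and which cells gave the signal of Ccr2 and Ms4a6c was not tested. Of 5 erythroid markers 2 rose, Car1 and Car2, with a summed signal from 9.65 to 9.85 and from 10.21 to 10.60, and without wild type array 3 this count was 1. Of 7 progenitor markers 2 rose, Hoxa9 and Meis1, and Kit fell; Meis1 was not called without any 1 array other than knockout array 3 (limma adjusted p from 0.0681 to 0.135). Of 4 markers of other innate lymphoid cells Klrg1 rose and Icos fell; Icos was not called without wild type array 2 (adjusted p = 0.0614) or 3 (0.0811) or without knockout array 3 (0.0595). None of 3 plasma cell, 2 basophil and mast cell, 5 platelet and 3 Y-linked genes was called; at an unadjusted p under 0.05 there were 0, 0, 1 and 1.

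The same comparison in bone marrow gave 1035 called genes, fitted with separate wild type and knockout arrays. All knockout marrow arrays lay in the first run of array numbers, but of the wild type marrow arrays only replicate 1 did. Genotype and run were thus largely confounded in marrow, and the marrow effects and tissue differences depend on the run term. In both tissues 558 genes were called, which is 51.2% of the spleen calls and 53.9% of the marrow calls, and 553 of them had the same direction. Of the 1090 genes called in spleen, 982 had the same sign in marrow. The test of the difference between the tissues called 1 gene of 11963, or 0.00836%, although 1092 genes had an unadjusted p under 0.05. That gene was Slamf6, which fell in both tissues, by 2.50 ± 0.11 in spleen and by 4.09 ± 0.13 in marrow. The fitted marrow effect minus the spleen effect was -1.59 ± 0.18 (limma adjusted p = 0.0194). Its wild type mean was 7.25 in spleen and 8.43 in marrow, 1.17 apart, and its knockout mean 4.76 and 4.32. Both knockout means lay below the tested level, where a fall can be no larger than the wild type level allows, so a difference of the knockout effect cannot be told apart from the difference between the wild type tissues. The difference lost its call without wild type spleen array 3 (adjusted p = 0.181) and without knockout spleen array 3 (0.0889); in the other 14 alternatives that tested Slamf6 the adjusted p ran from 0.000525 to 0.0495.

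The next smallest p-values of this difference did not pass the threshold. Car1, carbonic anhydrase 1, rose by 1.77 ± 0.30 in spleen and fell by 1.71 ± 0.34 in marrow (limma adjusted p of the difference = 0.071). Slc7a5 rose by 1.14 ± 0.17 in spleen and fell by 0.77 ± 0.19 in marrow (0.071). Plac8 rose by 4.80 ± 0.25 in spleen and by 2.13 ± 0.28 in marrow (0.0748), and its wild type mean was 5.37 in spleen, below the tested level, and 8.13 in marrow. Lair1, an inhibitory collagen receptor, differed by 0.00 ± 0.11 in spleen and fell by 1.10 ± 0.12 in marrow (0.0748). The large spleen changes of Itga1 and Cmah recurred in marrow at 3.49 ± 0.24 and -3.08 ± 0.32, and neither differed between tissues by the test.

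**Figure D5:**
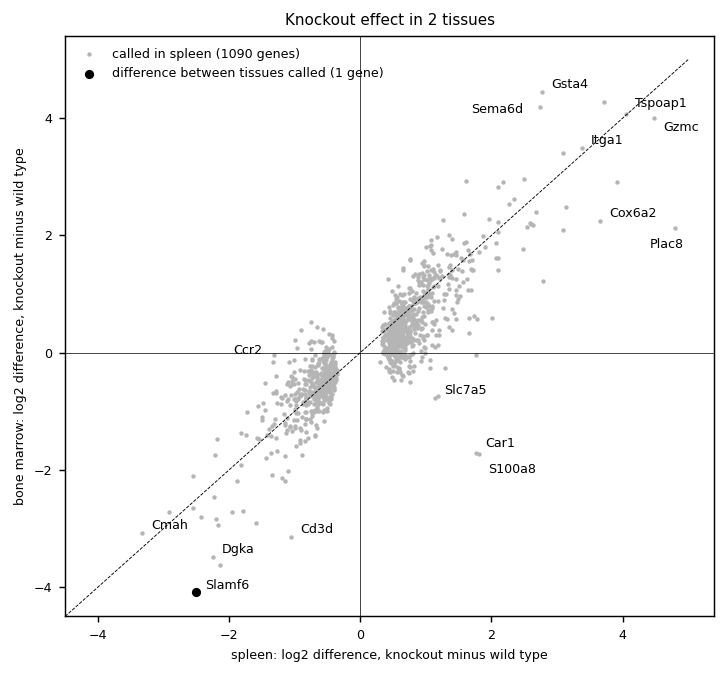
Each point is 1 of the 1090 genes called in spleen, with its log2 difference between knockout and wild type in spleen on the horizontal axis and in bone marrow on the vertical axis; the dashed line marks equal differences. Of these genes 982 lie in the quadrants of equal sign, and Slamf6, the black point, is the 1 gene called for a difference between the tissues.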

How the data were processed

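Total RNA of sorted spleen and bone marrow NK cells was hybridised to Affymetrix arrays, 12 in all. The deposited values are on a log2 scale and, per the submitters' processing notes, come from Affymetrix Expression Console with RMA, which corrects the background, makes the arrays' distributions alike and summarises probes; RMA can shrink differences of dim probe sets. The chip's genome build is not given in the sources used here. Spleen array medians lay between 5.80 and 5.87, and arrays correlated at 0.975 to 0.986 within a genotype and 0.949 to 0.964 between genotypes. Of 35556 probe sets, 21789 had 1 symbol, 1621 several and 12146 none; 21698 of the 21789 were found in RefSeq (GRCm38.p6) by gene identifier. For the 19938 symbols the probe set with the highest mean was kept, and testing was limited to the 11963 genes whose mean passed the 40th percentile (5.49). limma 3.58.1 (R 4.3.3) fitted 4 group means and a term for 2 runs of array numbers, of 7 and 5 arrays, whose meaning is not given in the labels, followed by eBayes, and differences are therefore adjusted for run. Values after ± are standard errors. Calls need a two-sided Benjamini-Hochberg adjusted p under 0.05; p-values measure the spread between 3 labelled biological replicates per group. No gene was called for the run term, and 546 had an unadjusted p under 0.05. The script was tested on simulated data. Log2 signals of different probe sets are not comparable with each other. A list's summed signal is the log2 of the summed linear signals of all members with a probe set, tested or not. It weighs the list's bright probe sets most.

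Named genes were Mir142, the 15 largest rises and falls without overlap between genotypes, up to 6 called and 2 uncalled members per list, fixed genes such as Itgav and Socs1, and the 5 smallest p-values of the difference between tissues. Itgb2, Itga2, Ctnnb1, S1pr4, S1pr5, Cxcr4, Gpr183, Srgn, Pde2a, Klf2, S100a4, S100a6, Anxa2 and Anxa6 were added after their values were seen, as was the mention of markers and granzymes below the tested level. The comparison, the lists and the naming rule were chosen with earlier results of these data known. The 20 alternatives varied the run term, the samples fitted, the replicate block, the filter, the probe set rule, the normalization, the variance model and the arrays left out.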

Additional observations from a re-analysis of the deposited data

Results flagged for a closer look

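Slamf6 stood out because its fitted knockout effect differed between bone marrow and spleen: the marrow effect minus the spleen effect was -1.59 ± 0.18 on the log2 scale (limma adjusted p = 0.0194), with the gene lower in knockout cells of both tissues. Its knockout means, 4.76 in spleen and 4.32 in marrow, were below the tested level of 5.49, while the wild type means were 1.17 apart, so the value does not separate a difference of the knockout effect from one between the wild type tissues. The call was lost without wild type spleen array 3 (adjusted p = 0.181) and without knockout spleen array 3 (0.0889).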

How the results depend on the processing

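With all arrays kept, 901 to 1202 genes were called, and the split into higher and lower moved at most from 60.2% to 66.8% higher, under median centring. Leaving out 1 spleen array gave 546 to 955 called genes, 352 to 562 higher and 194 to 406 lower. Leaving out wild type array 3 or knockout array 3 lowered the counts most, and 507 of the 1090 genes were called without the former. Each is the only spleen array of its genotype in its run, so with the run term the comparison is less precise without it. No called gene changed sign in any of the 20 alternatives. The same arrays chose these genes, and 1078 of the 1090 had separate arrays, so little change of sign could occur. Of 167 named called genes, 105 kept their call in all alternatives that tested them and 62 lost it in at least 1, of which 50 did so without wild type array 3, 36 without knockout array 3 and 22 in an alternative that left out no array. Within single runs, values with no test, 348 of the named genes' values moved by less than the replicate SD and 184 by more. Of the called genes 0 reversed, which is fixed in advance where the arrays of the genotypes do not overlap. Changes of sign in uncalled genes were not counted. Of the list medians 50 moved by less than the replicate SD and 38 by more. Genes called for a difference between tissues, 1 in the main analysis, numbered 2 without a run term, 12 with run as a random block, 5 with the replicate block, 0 with the 60th percentile filter, which leaves out Slamf6, 5 under median centring, 3 with trend and robust variance, 2 with array weights, and 0 to 3 without 1 spleen array; the cause was not tested.

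The replicate numbers were not used as pairs in the main fit. Deviations of same-numbered wild type and knockout spleen arrays correlated at -0.0068 to 0.094, against -0.12 to 0.047 for differing numbers. The arrays of each same-numbered spleen pair lay in opposite runs, and run was not removed from the deviations. These values therefore cannot show whether the numbers pair animals across genotypes. Same-numbered spleen and marrow arrays of a genotype correlated at 0.04 to 0.2, over 0.1 in 4 of 6 pairs. Differing numbers gave -0.18 to 0.066. Run was not removed here either. Wild type pairs 1 and 3 each lay in 1 run (0.127 and 0.129) and pair 2 in opposite runs (0.0422). Number and run cannot be told apart there. The knockout marrow arrays shared 1 run, and knockout pairs 1 to 3 gave 0.129, 0.04 and 0.201. A number shared across tissues would bear on the tissue difference (5 calls with the block, as above). The replicate block gave 1093 called genes over 12 arrays and 1071 over the 6 spleen arrays. Signal limits what can be seen for genes below the filter, and 3 arrays per group limit the precision of every difference.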
